A study of Homo sapiens with 6 samples.

Results

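The platelet-derived growth factor (PDGF) family was followed over 3 human prostate cancer lines: its receptors PDGFRA and PDGFRB and its ligands PDGFA, PDGFB, PDGFC and PDGFD. These are 6 of the 19775 genes that had a probe set of their own on the array. They were found by name, as every probe set whose platform annotation gives exactly one gene symbol equal to a member, which yielded 15 of 54675 probe sets. The members were chosen by name but with these signals in view: the family was proposed because the PDGFRA signals of these same arrays lay on opposite sides of PC-3 in the other two lines. The members' values are therefore given as a description, without p-values, and nothing is supported with them.

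The groups were TEM4-18, TEM2-5 and PC-3, with 2 expression arrays each. PC-3 is an established prostate cancer line from a bone metastasis. TEM4-18 and TEM2-5 derive from it. Each was recovered once, in an experiment of its own, among PC-3 cells that passed through an endothelial monolayer of human lung microvascular origin, so each TEM line is a single isolate compared with its parent. Culture medium and serum were shared by all 3 lines, and the labels name no other treatment. Arrays of a line are numbered 1 and 2 by their titles, which were followed for TEM2-5 although a source name differs, and nothing says that they came from separate cultures. The tests below thus measure only the spread between arrays, which may be technical.

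PDGF chains are secreted as disulfide-linked dimers. PDGF-A and PDGF-B are cut by furin-like proteases inside the cell, whereas PDGF-C and PDGF-D leave it with an inhibitory CUB domain that extracellular proteases such as tissue and urokinase plasminogen activator must remove. The receptors are class III receptor tyrosine kinases: the alpha receptor binds the A, B and C chains and the beta receptor the B and D chains. Both are best known from mesenchymal cells such as fibroblasts and pericytes, while carcinoma cells often make the ligands.

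The sequences before the annotated starts of the receptor genes are shown because PDGFRA had a probe set on which the TEM lines lay on opposite sides of PC-3, and PDGFRB is its closest relative in the family. RefSeq lists 2 starts for PDGFRA on build GRCh38.p14, and each line holds the 250 bases before a start, 5′ to 3′ on the gene's strand. Capitals mark the GC box GGGCGG and the CCAAT box CCAAT, on either strand.
PDGFRA, first start, chr4:54229043-54229292, plus strand: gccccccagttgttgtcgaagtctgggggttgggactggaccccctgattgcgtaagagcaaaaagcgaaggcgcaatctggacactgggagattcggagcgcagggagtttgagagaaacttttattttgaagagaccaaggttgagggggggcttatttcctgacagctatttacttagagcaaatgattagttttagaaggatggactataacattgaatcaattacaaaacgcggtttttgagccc
PDGFRA, second start, chr4:54233710-54233959, plus strand: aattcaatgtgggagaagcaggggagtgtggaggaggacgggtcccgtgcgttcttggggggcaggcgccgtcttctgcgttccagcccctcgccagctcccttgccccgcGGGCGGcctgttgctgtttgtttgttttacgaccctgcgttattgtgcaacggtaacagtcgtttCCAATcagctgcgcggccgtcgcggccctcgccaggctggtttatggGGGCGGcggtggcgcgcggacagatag
PDGFRB, chr5:150155846-150156095, minus strand: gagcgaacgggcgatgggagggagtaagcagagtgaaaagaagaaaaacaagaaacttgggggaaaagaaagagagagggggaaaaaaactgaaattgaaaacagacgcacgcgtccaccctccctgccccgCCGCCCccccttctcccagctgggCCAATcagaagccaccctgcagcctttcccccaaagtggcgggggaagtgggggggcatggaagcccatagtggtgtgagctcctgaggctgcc

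The window before the second PDGFRA start held 2 GC boxes and 1 CCAAT box, and the window before the first held neither motif. The PDGFRB window held 1 of each. Among 35116 windows of this length, 42.6% held a GC box and 32.0% a CCAAT box. The E-box CAGGTG, which ZEB and Snail repressors can bind, was searched on both strands and was in none of these 3 windows and in 17.5% of all windows. The TATA box TATAAA and the AP-1 site TGACTCA were also searched on both strands and were in none of the 3, against 10.7% and 4.2% of all windows. Among members whose windows are not shown, PDGFA had the E-box in separate windows, at -173, -159 and -92 from the start. Another PDGFA window and the PDGFD window did not hold it. A match is a run of letters only, and the arrays do not show which start was used.

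Array medians lay between 267 and 317 signal units. Arrays of one line correlated at 0.976 to 0.980 over the tested probe sets, and arrays of different lines at 0.923 to 0.972. The epithelial keratin KRT8 read 7379 and 6062 in TEM4-18, 9416 and 9037 in TEM2-5, and 23433 and 22688 in PC-3. KRT18 read 29511 and 28960 in TEM4-18, 31304 and 29314 in TEM2-5, and 60110 and 58278 in PC-3. The epithelial genes KRT19 and EPCAM were likewise lower in both TEM lines than in PC-3. EPCAM read 2035 and 1726 in TEM4-18, 10854 and 10398 in TEM2-5, and 44612 and 42292 in PC-3. E-cadherin (CDH1) was at 25.7 and 57.8 in TEM4-18 and at 2520 and 2479 in TEM2-5, against 14396 and 15147 in PC-3, so this epithelial marker was near the bottom of the scale in TEM4-18. The brightest of 3 probe sets for the prostate antigen KLK3 read 770.03 to 1301, and its suffix _x_at warns of cross-hybridization.

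PDGFRA encodes the alpha receptor and had 4 probe sets. On the brightest, 203131_at, the signals were 685 and 434 in TEM4-18, 2904 and 2170.3 in TEM2-5, and 1062 and 889 in PC-3. The 3 lines did not overlap: TEM2-5 was highest, PC-3 lay in the middle and TEM4-18 was lowest. On the scale log2(signal + 51.8), the difference from PC-3 was -0.77 ± 0.22 in TEM4-18 and 1.32 ± 0.22 in TEM2-5 (SE of a linear model over all 6 arrays). The added 51.8, set at the 20th percentile of the deposited signals, damps the noise of dim probe sets and so understates their differences. The mean signal was 0.221 times as high in TEM4-18 as in TEM2-5. In RNA pooled from a culture, fewer cells with a transcript and less of it per cell cannot be told apart.

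A second PDGFRA probe set, 215305_at, read 67.2 and 97.5 in TEM4-18, 534 and 317 in TEM2-5, and 62.0 and 137 in PC-3. TEM2-5 was again highest, and here TEM4-18 lay inside the range of PC-3. The log2 difference from PC-3 was -0.14 ± 0.49 in TEM4-18 and 1.66 ± 0.49 in TEM2-5. The TEM2-5 excess was thus seen on both brighter probe sets, and a TEM4-18 deficit without overlap on 1 of these 2.

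The dimmer PDGFRA probe sets gave another order. Probe set 1554828_at read 6.89 and 39.1 in TEM4-18, 113 and 76.6 in TEM2-5, and 170.0 and 129 in PC-3. PC-3 was highest here and TEM4-18 lowest, with no overlap, so TEM2-5 lay below PC-3 where 203131_at had placed it above. All 6 signals of 211533_at were below 51.8, from 3.08 to 42.1, and the lines overlapped. Both probe sets averaged below 174, the 40th percentile of probe set means, and were left out of the fit.

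PDGFRB, the beta receptor, had 1 probe set, 202273_at, which also fell short of that minimum. It read 50.004 and 84.8 in TEM4-18, 46.1 and 20.2 in TEM2-5, and 46.7 and 116 in PC-3. TEM2-5 lay below both other lines and TEM4-18 inside the range of PC-3. On the 6 arrays this probe set stood between the 10.0th and the 32.6th percentile of all probe sets, and 4 of its 6 signals were below 51.8.

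**Figure D1:**
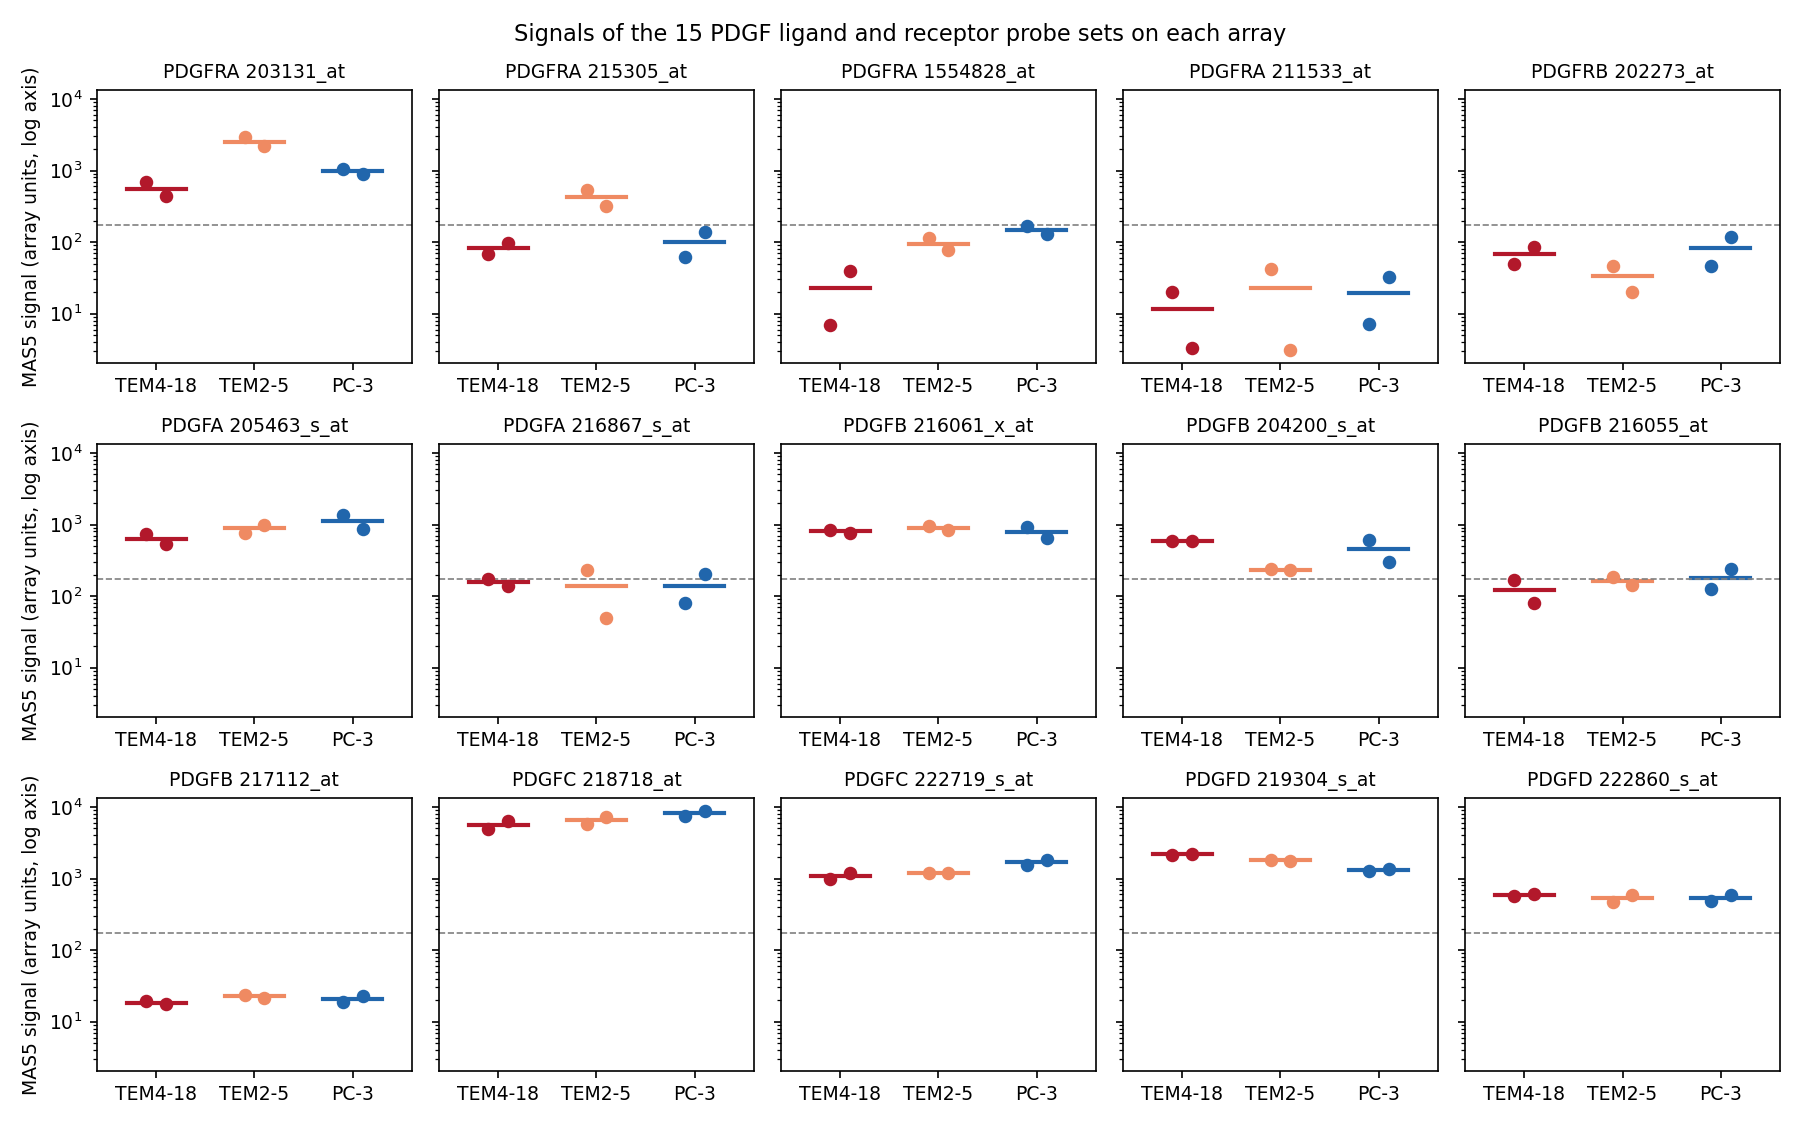
MAS5 signal (array units, log axis) of each of the 15 PDGF probe sets in TEM4-18, TEM2-5 and PC-3. Points are single arrays, bars the mean of 2 arrays, and the dashed line the minimum mean signal of 174 for entering the fit. PDGFRA 203131_at shows 3 separate levels, with TEM2-5 at 2170.3 and 2904 above PC-3 and TEM4-18 below it.

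PDGFA encodes the A chain, a ligand of the alpha receptor. On 205463_s_at the signals were 741 and 529 in TEM4-18, 770.05 and 990.1 in TEM2-5, and 1357.5 and 864 in PC-3. TEM4-18 lay below both other lines, and TEM2-5 overlapped PC-3. The log2 difference from PC-3 was -0.74 ± 0.25 in TEM4-18 and -0.30 ± 0.25 in TEM2-5. The arrays of PC-3 themselves were far apart, and without PC-3 replicate 1 the TEM4-18 difference was -0.43. A second probe set, 216867_s_at, averaged 145 and overlapped between the lines.

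PDGFB encodes the B chain, which binds both receptors, and its 4 probe sets disagreed. On 204200_s_at the signals were 583 and 594 in TEM4-18, 242 and 228 in TEM2-5, and 602 and 295 in PC-3. The TEM lines were each tight and differed from one another by 1.16 ± 0.32 on the log2 scale, TEM4-18 over TEM2-5, while the PC-3 arrays spanned almost the whole distance. Against PC-3 the differences were 0.43 ± 0.32 in TEM4-18 and -0.73 ± 0.32 in TEM2-5. In TEM4-18 the sign hung on PC-3, with -0.03 without PC-3 replicate 2 and 0.88 without PC-3 replicate 1. In TEM2-5 it was -1.19, past the threshold, without PC-3 replicate 2 and -0.28 without PC-3 replicate 1.

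On the brighter PDGFB probe set 216061_x_at all lines overlapped PC-3: the signals were 848 and 751 in TEM4-18, 960.3 and 846 in TEM2-5, and 911 and 657 in PC-3. Its differences from PC-3 were 0.04 ± 0.20 in TEM4-18 and 0.21 ± 0.20 in TEM2-5. The other two PDGFB probe sets averaged 156 and 20.6 and were not tested. Each tested PDGFA and PDGFB probe set carries the suffix _s_at or _x_at, given where probes are shared between transcripts or may cross-hybridize.

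PDGFC encodes the C chain, which needs extracellular cleavage before it binds the alpha receptor, and both of its probe sets were lower in both TEM lines without overlap with PC-3. On 218718_at the signals were 4955 and 6307 in TEM4-18, 5747 and 7255.5 in TEM2-5, and 7523 and 8813 in PC-3. The log2 difference from PC-3 was -0.54 ± 0.14 in TEM4-18 and -0.33 ± 0.14 in TEM2-5, and the TEM lines overlapped each other. On 222719_s_at the signals were 983 and 1182 in TEM4-18, 1188 and 1181 in TEM2-5, and 1530 and 1824 in PC-3. The order was the same, with -0.61 ± 0.16 in TEM4-18 and -0.48 ± 0.16 in TEM2-5.

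PDGFD encodes the D chain, a ligand of the beta receptor that also needs cleavage, and it was the one member higher in both TEM lines without overlap. On 219304_s_at the signals were 2159 and 2220 in TEM4-18, 1823 and 1759 in TEM2-5, and 1265.5 and 1364 in PC-3. Each line had its own level, in the order TEM4-18, TEM2-5, PC-3, with the arrays of a line closer to each other than to any other line. The log2 difference from PC-3 was 0.71 ± 0.13 in TEM4-18 and 0.43 ± 0.13 in TEM2-5. The dimmer 222860_s_at did not share it: the signals were 574 and 610.1 in TEM4-18, 474 and 588 in TEM2-5, and 480.3 and 582 in PC-3, with differences of 0.15 ± 0.22 and -0.0014 ± 0.22 from PC-3. TEM4-18 and TEM2-5 both overlapped PC-3 on that probe set.

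Counted over all 15 probe sets, TEM4-18 lay wholly above PC-3 on 1 and wholly below it on 5, against 24.6% and 26.2% of all probe sets on the array. TEM2-5 lay wholly above on 3 and wholly below on 5, against 23.7% and 24.5%. TEM4-18 lay wholly above TEM2-5 on 3 and wholly below it on 5, against 18.9% and 20.2%. The linear model tested the 9 brighter probe sets, of 5 genes, within a table of 32768, and limma's adjusted p of 0.05 was the threshold. In TEM4-18, 5 of the 9 passed, PDGFD 219304_s_at higher and PDGFRA 203131_at, PDGFA 205463_s_at and both PDGFC probe sets lower, where 25.6% of all tested probe sets passed (12.8% in each direction). In TEM2-5, 3 passed, all higher (both PDGFRA probe sets and PDGFD 219304_s_at), where 16.3% of all did (8.66% higher, 7.59% lower), and 3 were lower at an unadjusted p under 0.05. Between TEM4-18 and TEM2-5, where 1.78% of all passed (0.357% higher, 1.43% lower), 1 of the 9 did, PDGFRA 203131_at, lower in TEM4-18. Its signals were what led to the choice of the family, so its place past the threshold carries no evidence. The median log2 difference of the 9 was -0.14 in TEM4-18 and -0.0014 in TEM2-5, against -0.0015 and 0.0076 over all tested probe sets. The comparisons with PC-3 share its 2 arrays, and the contrasts were already known when the family was chosen, so these counts are a description.

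Several of these calls were lost when an array was left out. For PDGFA in TEM4-18 and PDGFD in TEM2-5, this held also for arrays of the line outside the comparison, at unchanged differences of -0.74 and 0.43. Such a loss does not show that a call rested on the array left out. The TEM4-18 call of PDGFRA 203131_at was lost without TEM4-18 replicate 2, at -0.47, and without PC-3 replicate 1, at -0.65. The TEM2-5 call of PDGFRA 215305_at was lost under 7 of 12 alternative settings, among them leaving out either PC-3 or either TEM2-5 array, at differences of 1.30 to 2.14. Both PDGFC calls in TEM4-18 were lost without TEM4-18 replicate 1, at -0.37 and -0.48, and without PC-3 replicate 2. That of PDGFA was lost under 8 of 13 alternative settings, and that of PDGFD 219304_s_at in TEM2-5 under 8 of 13, although PDGFD kept a difference of 0.38 to 0.48 in all 13.

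**Figure D2:**
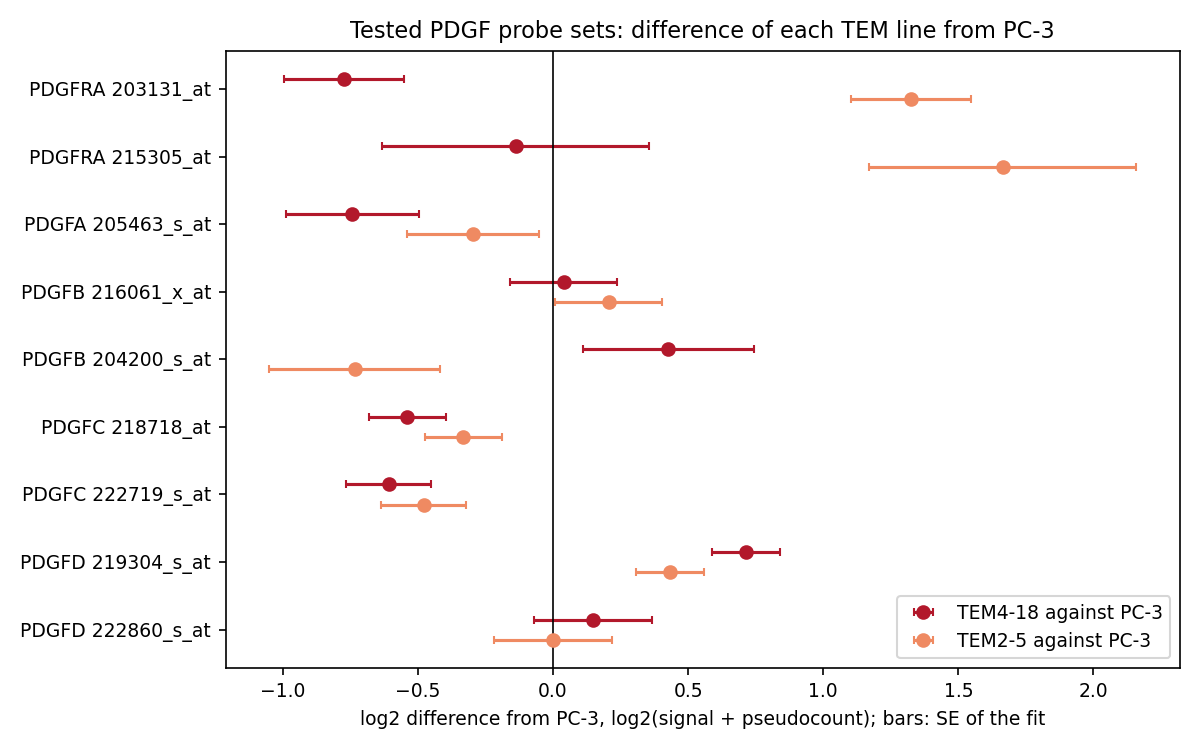
Log2 difference from PC-3 of the 9 tested PDGF probe sets in TEM4-18 (dark red) and TEM2-5 (orange), with the standard error of the fit as bars. PDGFRA 203131_at lies at -0.77 in TEM4-18 and 1.32 in TEM2-5, while both PDGFC probe sets lie below 0 in both lines.

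Proteins that release or hold the ligands were the first of 6 lists of other pathway genes, drawn from textbook knowledge. Each gene was read from its brightest probe set, and adjusted p-values are limma's over all tested probe sets. Of 13621 genes so tested, 29.3% passed in TEM4-18 (13.3% higher, 16.0% lower) and 19.0% in TEM2-5 (8.98% higher, 10.1% lower). Among 5 tested ligand proteases, 4 were lower in TEM4-18 and 3 in TEM2-5. The median of the 5 was -1.10 in TEM4-18 and -0.49 in TEM2-5, against -0.038 and -0.024 over all tested genes.

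PLAT encodes tissue plasminogen activator, which removes the CUB domain of PDGF-C. Its signals were 2751 and 2351 in TEM4-18, 14144 and 14955 in TEM2-5, and 23935 and 22046 in PC-3. It fell by 3.15 on the log2 scale in TEM4-18 (SE 0.096, adjusted p = 9.46e-09) and fell by 0.66 in TEM2-5 (adjusted p = 0.00112), and the TEM lines differed by -2.49 (adjusted p = 1.96e-07). The 3 lines thus stood at 3 separate levels, with TEM4-18 lowest.

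ST14 encodes matriptase, an epithelial membrane protease that can process PDGF-C and PDGF-D. It read 49.2 and 120 in TEM4-18, 893 and 1275 in TEM2-5, and 6527 and 8716 in PC-3. It fell by 5.85 in TEM4-18 (adjusted p = 1.83e-07) and fell by 2.76 in TEM2-5 (adjusted p = 8.79e-05). PLAU, the urokinase that removes the CUB domain of PDGF-D, was 31940 and 35276 in TEM4-18, 39204 and 34686 in TEM2-5, and 54519 and 49521 in PC-3. It fell by 0.63 in TEM4-18 (adjusted p = 0.000245) and fell by 0.49 in TEM2-5 (adjusted p = 0.00226), on both of its tested probe sets.

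FURIN, which cuts the A and B chains, read 488 and 329 in TEM4-18, 760 and 681 in TEM2-5, and 883 and 973 in PC-3. It fell by 1.11 in TEM4-18 (adjusted p = 0.00380), and its difference in TEM2-5 was -0.34 (adjusted p = 0.339). The related convertase PCSK7 had log2 differences of -0.40 in TEM4-18 and -0.20 in TEM2-5, and passed in neither (adjusted p = 0.242 and 0.617). In TEM4-18 it was -0.72 without PC-3 replicate 1 (adjusted p = 0.0477) and -0.07 without PC-3 replicate 2. PCSK5 was below the minimum signal, with 2.63 to 75.5 over the 6 arrays. No protein or protease activity was measured.

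Binding proteins and the receptor-like gene PDGFRL moved unevenly. Of 7 tested, TEM4-18 had 1 higher and 2 lower, and TEM2-5 had 1 lower. The shares called were 42.9% and 14.3%, against 29.3% and 19.0% of all genes. THBS1, the matrix glycoprotein thrombospondin-1, which can bind PDGF, was 661 and 682 in TEM4-18, 4163 and 5726 in TEM2-5, and 21229 and 26727 in PC-3. It fell by 5.04 in TEM4-18 (adjusted p = 1.02e-08) and fell by 2.27 in TEM2-5 (adjusted p = 1.15e-05), with 6 of 7 tested probe sets passing in each line. SPARC, a matricellular protein that binds the B chain, read 711 and 434 in TEM4-18, 406 and 204 in TEM2-5, and 160 and 9.46 in PC-3.

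SPARC rose by 2.42 in TEM4-18 (adjusted p = 0.00981), and its difference in TEM2-5 was 1.59 (adjusted p = 0.0866). The PC-3 arrays were far apart for this gene: without PC-3 replicate 2 the difference was 1.52 in TEM4-18 and 0.69 in TEM2-5, and the TEM4-18 call was lost without TEM4-18 replicate 1 (adjusted p = 0.0822). SPARC passed in TEM2-5 under a replicate block (adjusted p = 0.0193) and once PC-3 replicate 1 was left out (2.48, adjusted p = 0.0107). Its TEM4-18 difference was 3.76 with 1 added to each signal in place of 51.8, and 1.44 with 4 times that value. NRP1, a co-receptor, fell by 0.22 in TEM4-18 (adjusted p = 0.0209) and differed by -0.03 in TEM2-5 (adjusted p = 0.792). The NRP1 call was lost without either PC-3 array or without TEM4-18 replicate 2. In TEM4-18, 3 of 4 NRP1 probe sets passed, all lower, and their average was -0.43 (adjusted p = 0.00724). NRP2, the endocytic receptor LRP1, the protease inhibitor A2M and PDGFRL did not pass in either line, with differences between -0.33 and 0.61.

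Listed relatives of the family, class III receptors and ligands of the cystine-knot fold, were low, lower or not past the threshold. VEGF receptors such as KDR were not in this list. KDR was higher in both TEM lines and is given below with the neighbours of PDGFRA. KIT, another class III receptor and the gene next to PDGFRA on chromosome 4, read 65.6 and 14.8 in TEM4-18, 106 and 18.6 in TEM2-5, and 32.6 and 14.4 in PC-3, below the minimum signal. Of 7 tested relatives, 3 were lower in TEM4-18 and 2 in TEM2-5, where 16.0% and 10.1% of all genes were lower. None was higher by limma in either line, also at an unadjusted p under 0.05. KITLG, the ligand of KIT, fell by 0.76 in TEM4-18 (adjusted p = 0.00107), and its difference in TEM2-5 was -0.12 (adjusted p = 0.555). VEGFA, an angiogenic factor of the same cystine-knot fold, fell by 0.76 in TEM4-18 (adjusted p = 0.00277), with -0.42 in TEM2-5 (adjusted p = 0.0742). With its probe sets averaged, VEGFA passed in TEM2-5 by limma (-0.41, adjusted p = 0.0251). Its TEM2-5 difference was -0.60 without TEM2-5 replicate 2 and -0.24 without TEM2-5 replicate 1.

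VEGFC, a lymphangiogenic factor, fell by 0.58 in TEM4-18 (adjusted p = 0.00246) and fell by 0.51 in TEM2-5 (adjusted p = 0.00900). PGF, the placental growth factor, fell by 0.44 in TEM2-5 (adjusted p = 0.0241), and its TEM4-18 difference was -0.27 (adjusted p = 0.114). The TEM2-5 calls of VEGFC and PGF were lost without TEM2-5 replicate 2 (adjusted p = 0.0806 and 0.184), and that of PGF also without either PC-3 array.

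**Figure D3:**
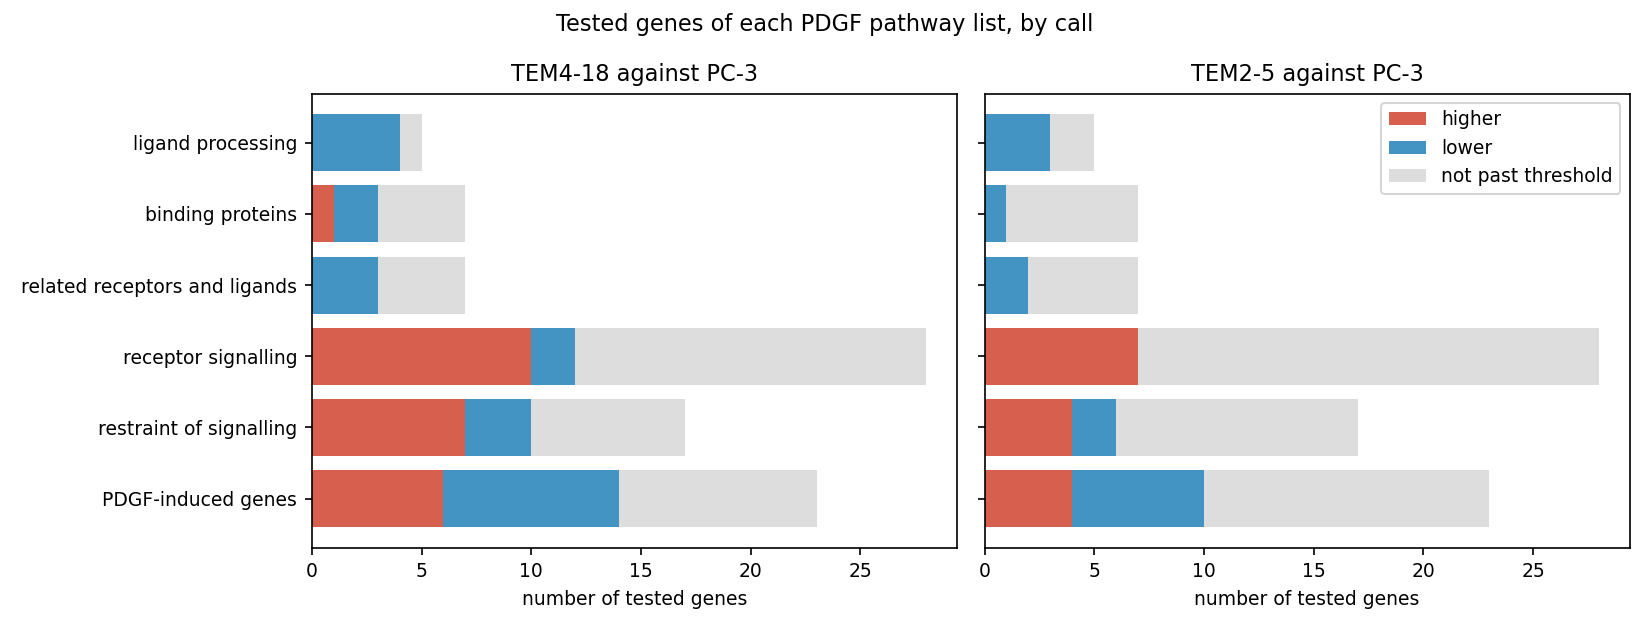
Number of tested genes of each PDGF pathway list that were higher, lower or not past the threshold in TEM4-18 and in TEM2-5, each against PC-3. Of the 5 ligand proteases, 4 were lower in TEM4-18, and 10 of 28 receptor signalling genes were higher there.

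Of genes that carry the signal inside the cell, 42.9% passed in TEM4-18 and 25% in TEM2-5, against 29.3% and 19.0% of all genes. Of 28 tested adaptors, kinases and effectors, 10 were higher and 2 lower in TEM4-18, and 7 were higher in TEM2-5, where 2 were lower at an unadjusted p under 0.05 and none by limma's adjusted p. In TEM4-18 16 and in TEM2-5 21 of the 28 did not pass, and the list's median log2 difference was 0.097 in TEM4-18 and 0.091 in TEM2-5. SRC, the kinase recruited to active PDGF receptors, was 7609 and 6639 in TEM4-18, 5813 and 5249 in TEM2-5, and 2746 and 2796 in PC-3. It rose by 1.34 in TEM4-18 (adjusted p = 8.08e-06) and by 0.98 in TEM2-5 (adjusted p = 0.000180), on all 3 tested probe sets in both lines.

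The adaptor SHC1, which links receptors to RAS, rose by 0.93 in TEM4-18 (adjusted p = 9.12e-06) and by 0.48 in TEM2-5 (adjusted p = 0.00166). PLCG1, the phospholipase C that docks on PDGF receptors, rose by 0.88 in TEM4-18 (adjusted p = 0.000291) and by 0.62 in TEM2-5 (adjusted p = 0.00459), on 1 of 2 tested probe sets. With these averaged it was 0.42 in TEM4-18 (adjusted p = 0.0286) and 0.25 in TEM2-5 (adjusted p = 0.201). SOS1, the RAS exchange factor, rose by 0.71 in TEM4-18 (adjusted p = 0.00156) and by 0.44 in TEM2-5 (adjusted p = 0.0319). For SOS1 this was 1 of 4 tested probe sets, another was called lower in TEM4-18, and the average over its probe sets was 0.13 in TEM4-18 (adjusted p = 0.429).

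The SOS1 call in TEM2-5 was also lost without either PC-3 array or without TEM2-5 replicate 2. GRB7, an adaptor that binds the beta receptor, fell by 0.91 in TEM4-18 (adjusted p = 0.0296), a call lost without TEM4-18 replicate 2, at -0.46, and without either PC-3 array. Its TEM2-5 difference was -0.41 (adjusted p = 0.355). PIK3R1, the regulatory subunit that brings PI3-kinase to the receptors, did not pass in TEM4-18 (0.09, adjusted p = 0.805) or in TEM2-5 (0.30, adjusted p = 0.382).

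Genes that restrain the pathway changed in both directions. Of 17 tested, 7 were higher and 3 lower in TEM4-18, and 4 were higher and 2 lower in TEM2-5. The shares called were 58.8% and 35.3%, against 29.3% and 19.0% of all genes. SPRY4, a Sprouty inhibitor of RAS signalling, was 13707 and 10430 in TEM4-18, 9816 and 8502 in TEM2-5, and 3250.5 and 2848 in PC-3. It rose by 1.96 in TEM4-18 (adjusted p = 3.15e-06) and by 1.57 in TEM2-5 (adjusted p = 4.23e-05). The ERK phosphatase DUSP5 rose by 1.29 in TEM4-18 (adjusted p = 2.64e-05) and by 1.11 in TEM2-5 (adjusted p = 0.000190). NHERF2, a scaffold of the NHERF family that binds PDGF receptors, rose by 1.19 in TEM4-18 (adjusted p = 0.00313) and by 1.16 in TEM2-5 (adjusted p = 0.00612).

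SPRED2, another inhibitor of the RAS to ERK route, rose by 0.84 in TEM4-18 (adjusted p = 0.000136) and by 0.57 in TEM2-5 (adjusted p = 0.00322). The stress-responsive phosphatase DUSP1 fell by 1.72 in TEM4-18 (adjusted p = 2.08e-05) and fell by 1.10 in TEM2-5 (adjusted p = 0.000914), on 1 of 2 tested probe sets. The average over its probe sets was -0.79 in TEM4-18.

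Genes that PDGF induces in fibroblasts were split as well. Of 23 tested, 6 were higher and 8 lower in TEM4-18, and 4 were higher and 6 lower in TEM2-5. Shares called were 60.9% and 43.5%, against 29.3% and 19.0% of all genes, with list medians of -0.25 and -0.090. The stress transcription factor ATF3 was 252 and 176 in TEM4-18, 473 and 729 in TEM2-5, and 3182 and 3453 in PC-3. It fell by 3.68 in TEM4-18 (adjusted p = 1.68e-06) and fell by 2.39 in TEM2-5 (adjusted p = 8.79e-05), and with its probe sets averaged the differences were -1.825 and -1.16. The neutrophil chemokine CXCL1 fell by 3.18 in TEM4-18 (adjusted p = 7.44e-08) and fell by 2.37 in TEM2-5 (adjusted p = 2.51e-06).

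The immediate early gene IER3 fell by 1.55 in TEM4-18 (adjusted p = 2.25e-06) and fell by 1.03 in TEM2-5 (adjusted p = 9.34e-05). JUNB, an AP-1 subunit, fell by 1.29 in TEM4-18 (adjusted p = 0.000347) and fell by 1.26 in TEM2-5 (adjusted p = 0.000831). CCN2, connective tissue growth factor, was 6645 and 7975 in TEM4-18, 7654 and 6586 in TEM2-5, and 3128 and 3950 in PC-3. It rose by 1.04 in TEM4-18 (adjusted p = 0.000270) and by 1.00 in TEM2-5 (adjusted p = 0.000696). Many of these genes answer to other stimuli too, and no PDGF was added in this study.

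**Figure D4:**
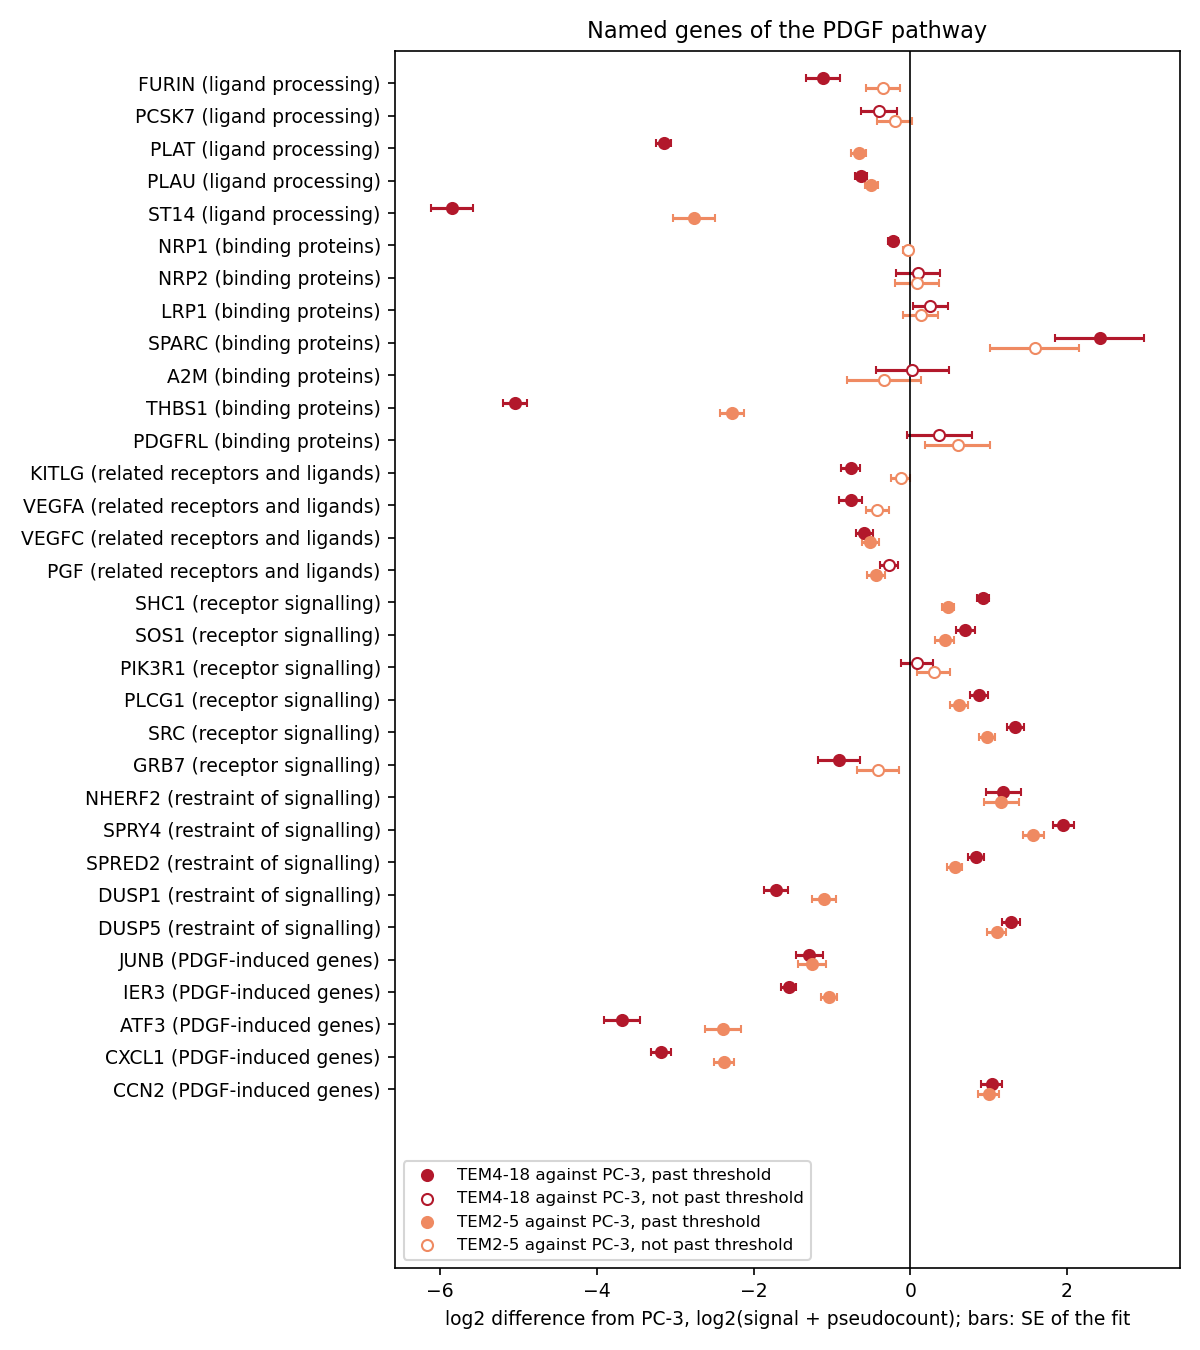
Log2 difference from PC-3 of the tested named pathway genes in TEM4-18 (dark red) and TEM2-5 (orange), with the standard error of the fit. Filled points passed limma's adjusted p of 0.05 and open points did not. In TEM4-18, ST14 (-5.85), THBS1 (-5.04), ATF3 (-3.68), CXCL1 (-3.18) and PLAT (-3.15) lie furthest below 0, and SPARC (2.42) and SPRY4 (1.96) furthest above.

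Over all 6 lists, 87 of 112 genes were tested, and 46 passed in TEM4-18, 24 higher and 22 lower, which is 52.9% against the 29.3% of all genes. In TEM2-5, 29 passed, 15 higher and 14 lower, which is 33.3% against 19.0%. Between TEM4-18 and TEM2-5, 9 passed, 1 higher and 8 lower, against 2.75% of all genes (0.492% higher, 2.26% lower). The median log2 difference of the 87 was -0.011 in TEM4-18 and 0.051 in TEM2-5. The lists were written with earlier results of these arrays known, so their share of calls is a description.

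Markers of cell types that carry PDGF receptors were read beside PDGFRA. Of 11 mural cell markers, 8 were tested, and CSPG4, CNN1 and HIGD1B were below the minimum signal. KCNJ8 was higher in TEM4-18 (0.91, adjusted p = 0.00674) and in TEM2-5 (0.80, adjusted p = 0.0207). NOTCH3 was lower in TEM4-18 (-3.46, adjusted p = 2.23e-05) and in TEM2-5 (-1.94, adjusted p = 0.00211), and MCAM was lower in TEM4-18 (-0.46, adjusted p = 0.0356). The other 5 tested, RGS5 among them, passed in neither line on their brightest probe sets. For RGS5, 1 of 5 tested probe sets was called higher in TEM4-18. The summed signal of the whole mural list was 8663 to 10248 in TEM4-18, 9269 to 10064 in TEM2-5 and 11737 to 14191 in PC-3, of which MCAM made up at least 65.3% on every array. The sum of 12 fibroblast markers was 50513 to 55125 in TEM4-18, 49072 to 55792 in TEM2-5 and 20834 to 24292 in PC-3, and COL6A3 alone made up at least 56.8% of it on every array. Of 8 fibroblast markers tested, COL1A1 (1.44 in TEM4-18, 1.39 in TEM2-5) and COL6A3 (1.25 and 1.23) were higher in both lines. LUM was lower in TEM4-18 (-3.18, adjusted p = 0.000549), with -1.11 in TEM2-5 (adjusted p = 0.138). The other 5 passed in neither line. FAP, DPT, POSTN and PDPN were below the minimum, and the median over the 12 was 114 to 170.05 in TEM4-18, 250.3 to 312 in TEM2-5 and 176 to 185 in PC-3. That median follows the order of PDGFRA 203131_at, and its part in the PDGFRA values was not tested.

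The endothelial list summed to 5246 to 6730.3 in TEM4-18, 5657 to 5667 in TEM2-5 and 4011 to 4129 in PC-3, with 4 of 7 tested genes higher in TEM4-18 and 3 in TEM2-5. These were KDR (2.40 in TEM4-18, 2.29 in TEM2-5), ENG (1.34 and 1.09), ROBO4 (0.73 and 0.78) and, in TEM4-18, ESAM (1.40), all log2 differences from PC-3. PECAM1 (-0.40 and 0.08), FLT1 (-0.085 and -0.13) and EGFL7 (-0.51 and -0.56) passed in neither line. For PECAM1, 1 of 3 tested probe sets was called lower in TEM4-18. Of all genes, 13.3% were higher in TEM4-18 and 8.98% in TEM2-5. Of the 16 markers 9, CDH5, VWF, TIE1 and CLEC14A among them, were below the minimum signal. Leukocyte markers summed to 1302 to 1421 in TEM4-18, 819 to 1134 in TEM2-5 and 1102 to 1201 in PC-3, with 8 of 10 below the minimum.

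Genes that neighbour the members were read as well. For each member, the nearest 2 protein-coding genes on either side were taken, 24 in all, of which 14 were tested. In TEM4-18, 3 were higher and 2 lower, where 29.3% of all genes passed. In TEM2-5, 3 were higher and 1 lower, where 19.0% of all did, and between the TEM lines the lowest adjusted p was 0.45. Around PDGFRA, CHIC2 on one side had log2 differences of 0.24 in TEM4-18 (adjusted p = 0.0518) and 0.33 in TEM2-5 (adjusted p = 0.0192), and GSX2 was below the minimum. On the other side KIT was below it too, and KDR, the main endothelial VEGF receptor, was 1870.0 and 975 in TEM4-18, 1243 and 1259 in TEM2-5, and 306 and 146 in PC-3. KDR rose by 2.40 in TEM4-18 (adjusted p = 0.000334) and by 2.29 in TEM2-5 (adjusted p = 0.000913), and the TEM lines differed by 0.11 (adjusted p = 0.939).

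Beside PDGFC, GLRB, a glycine receptor subunit singled out after its values were seen, fell by 0.93 in TEM4-18 (adjusted p = 0.00472) and fell by 0.69 in TEM2-5 (adjusted p = 0.0334). The other neighbours that passed, also named after their values were seen, were CBX7 and SYNGR1 beside PDGFB, both higher in TEM4-18, with SYNGR1 higher in TEM2-5 too, and DCUN1D5 beside PDGFD, lower in TEM4-18.

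The genes with the most similar profiles were ranked over the 6 arrays among 13616 genes, by the root mean square (RMS) difference between log2 profiles centred on their own means. Nearest to PDGFRA were the sialyltransferase gene ST6GALNAC2 at an RMS difference of 0.339 (r = 0.94), MIR1-1HG at 0.341 (r = 0.98) and APCDD1L at 0.359 (r = 0.92). PDGFRA itself ranged over 2.6 on the same scale and PDGFD over 0.786, and the RMS difference grows with that range. Nearest to PDGFD were KIAA1143 at 0.0218, AP2M1 at 0.0242 and UBE2E3 at 0.0314, each at r above 0.99. The nearest to PDGFC was RFTN1 (0.0451), to PDGFA SLITRK4 (0.0739) and to PDGFB, on 216061_x_at, GCC2 (0.0261). As a description, 18 genes correlated with PDGFRA above r = 0.95 and 561 with PDGFD, over 6 points that share 3 lines.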

How the data were processed

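Total RNA of 6 samples was hybridized to short-oligonucleotide expression arrays, 2 each for TEM4-18, TEM2-5 and PC-3. The authors deposited linear signal intensities per probe set, which came from MAS5 according to the submitters' processing notes. Its version and a genome build are not given in the sources used here. The 2% trimmed mean was 1500.18 on each array to 6 digits, so the deposited intensities were taken as already scaled and were not normalized again. MAS5 subtracts mismatch signals, which makes its low values noisy. Single symbols came from the platform annotation (41097 probe sets) and were checked by gene ID against RefSeq genes of GRCh38.p14, with 54 unmatched.

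Intensities were transformed to log2(signal + 51.8), the 20th percentile of all values. The 32768 probe sets, of 54675 less 62 controls, whose mean exceeded 174 (the 40th percentile) were tested. One mean per line was fitted to all 6 arrays, leaving 3 residual degrees of freedom, in limma 3.58.1 (R 4.3.3; lmFit, eBayes with a mean-variance trend), two-sided, with Benjamini-Hochberg adjustment and a threshold of 0.05. The fit was tested on simulated data. A gene was read from its brightest single-symbol probe set. Errors are SEs of the fit. The number of arrays limits the precision.

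Named genes were all members, all ligand proteases and binding proteins, and up to 5 genes of each other list with the greatest called change, with KIT and PIK3R1 added. The members, lists and rules were chosen with earlier results of these data known. Alternatives were other pseudocounts, filters, quantile normalization, no trend, a replicate block, averaged probe sets and leaving out each array. Genes of the lists with no value above are not reported here. Promoter sequences are RefSeq's (GRCh38.p14), with entries for PDGFRA, PDGFRB, PDGFA and PDGFD among the 6 members.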

Additional observations from a re-analysis of the deposited data

Results flagged for a closer look

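On PDGFRA 203131_at the TEM lines differed in direction: every TEM4-18 array lay below every PC-3 array and every TEM2-5 array above. The mean signal was 0.221 times as high in TEM4-18 as in TEM2-5. This split was known when the family was chosen, so its place past limma's threshold carries no evidence and the difference was not tested on other arrays. On the other tested PDGFRA probe set, 215305_at, TEM4-18 lay inside the range of PC-3 (-0.14 ± 0.49). The dimmer PDGFRA probe set 1554828_at placed both TEM lines below PC-3.

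For 8 other named genes, limma's contrast of TEM4-18 against TEM2-5 passed the threshold, so their differences from PC-3 were unequal in the 2 lines. The protease genes PLAT (-2.49, adjusted p = 1.96e-07) and ST14 (-3.09, adjusted p = 0.000138) and the thrombospondin gene THBS1 (-2.77, adjusted p = 4.75e-06, and -1.65 with its probe sets averaged) were lower in TEM4-18, on the log2 scale. ATF3 (-1.28, adjusted p = 0.0202), CXCL1 (-0.81, adjusted p = 0.00948), KITLG (-0.63, adjusted p = 0.0287) and IER3 (-0.52, adjusted p = 0.0308) were also lower in TEM4-18. SHC1 was higher there (0.45, adjusted p = 0.0123). Both arrays of TEM4-18 lay on the same side of both arrays of TEM2-5 for each of these 8. The calls of KITLG, SHC1, ATF3, CXCL1 and IER3 were each lost without TEM2-5 replicate 2 (adjusted p = 0.197, 0.122, 0.165, 0.0954 and 0.0729). Those of SHC1, ATF3 and IER3 were also lost without TEM4-18 replicate 2 (adjusted p = 0.0723, 0.113 and 0.159), and those of KITLG and SHC1 without TEM4-18 replicate 1 (adjusted p = 0.141 and 0.0744). With its probe sets averaged, ATF3 was at -0.66 (adjusted p = 0.213). Without TEM2-5 replicate 1 those of KITLG and IER3 were lost (adjusted p = 0.133 and 0.236).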

How the results depend on the processing

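Without the mean-variance trend, the counts of all probe sets called were 5360 in TEM4-18, 2320 in TEM2-5 and 125 between the TEM lines, against 8396, 5325 and 584. The PDGF probe sets called were then 1, 0 and 0, against 5, 3 and 1 (at an unadjusted p under 0.05 without the trend: 5, 4 and 4), and the pathway genes 28, 14 and 2, against 46, 29 and 9. With no filter on low values, all but the control probe sets were tested, and 300 probe sets and 5 pathway genes were called between the TEM lines. In TEM2-5, 1 PDGF probe set was then called and 3929 probe sets in all. In TEM4-18 these counts were 4 and 7064. With a replicate block, 5 PDGF probe sets were called in TEM2-5, and 9445, 6429 and 874 probe sets in all. Deviations of same-numbered arrays correlated weakly between the lines, at 0.0625 to 0.0978. The labels do not say whether the replicate numbers pair the arrays, and the main fit did not pair them.

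Leaving out single arrays gave 5980 to 7747 probe sets in TEM4-18, 2825 to 5135 in TEM2-5 and 218 to 550 between the TEM lines. In TEM2-5, 2968 and 2825 were called without its own replicate 1 or 2 and 3323 without PC-3 replicate 2. Between the lines, 218 and 265 were called without TEM2-5 replicate 1 or 2 and 321 without TEM4-18 replicate 2. PDGF probe sets called were 3 to 4 in TEM4-18 (3 without either PC-3 or either TEM4-18 array), 1 to 2 in TEM2-5 (1 without PC-3 replicate 1 or either TEM2-5 array) and 1 to 2 between the lines (2 without PC-3 replicate 2). Pathway genes were 36 to 45, 22 to 30 and 3 to 11, with 5 between the lines without TEM4-18 replicate 2 and 3 without TEM2-5 replicate 2. Over all alternatives, 35 of 345 values of PDGF probe sets and 54 of 1332 of named pathway genes lost a call, 5 and 6 gained one, and no called value changed sign. The cause of these changes was not tested. Signals near 51.8 or below carry little information on PDGFRB and the dimmer PDGFRA probe sets.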
